A study of Mus musculus with 11 samples.

Results

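Chemokine-high microglia were the brain macrophages of the dataset in which 6 genes for secreted inflammatory signals, Ccl3, Ccl4, Tnf, Il1a, Ccl2 and Ccl12, made up at least 1% of all unique molecular identifiers (UMIs, the counted RNA molecules of a cell). The cells were chosen by these measured values, so the high levels of the 6 genes describe the choice and are given without a test. Barcodes had to show 500 genes or more, with no more than 10% of UMIs from mitochondrial genes, to be kept. A kept barcode was gated as a microglial cell with at least 4 UMIs in all from P2ry12, Cx3cr1, Tmem119 and Fcrls, at most 3 from the endothelial genes Cldn5 and Flt1, and none from the perivascular macrophage genes Mrc1 and Cd163. Of 66658 barcodes, 61625 were kept and 13411 were gated as microglia. Of these, 3622 were chemokine-high, which was 27.0% of the microglia and 5.88% of the kept barcodes. Another 4482 microglia, in which the 6 genes made up under 0.3% of UMIs, were called chemokine-low and served as the comparison within each mouse, and 5307 lay between.

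The cells came from 11 untreated mice, 1 library per mouse, in a study of CADASIL, an inherited small vessel disease of the brain caused by variants of NOTCH3. All mice carried a human NOTCH3 transgene. The 6 CADASIL mice (genotype TgN3 R182C, line Tg350, R182C-TgN3) carried it with the cysteine-altering R182C change, and the 5 control mice (genotype TgN3, line Tg100, WT-TgN3) carried it without that change. The groups were CADASIL at 6 months (n = 3), CADASIL at 9 months (n = 3), control at 6 months (n = 3) and control at 9 months (n = 2), with both sexes in each genotype. The transgenes sit in separate mouse lines, so the amino acid change and the line cannot be told apart. The cells were taken from digested brain with CD31, an endothelial surface protein, so these are microglia that came along with vessel fragments and not a sample of all brain microglia. The mice were processed in 4 batches and no batch held both ages, so age and batch cannot be told apart and age was not tested.

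Microglia are the resident macrophages of brain tissue. They sense damage and microbial products through receptors such as Toll-like receptors, which release the transcription factor NF-kappaB from its inhibitor IkappaB-alpha and switch on genes for chemokines and cytokines. Ccl3 and Ccl4 encode CC chemokines that attract leukocytes to sites of inflammation. Ccl2 and Ccl12 encode chemokines that attract monocytes through Ccr2. Tnf and Il1a encode the cytokines tumour necrosis factor and interleukin 1 alpha. The same genes can also be switched on while tissue is being cut and digested, and the protocol used here included digestion.

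The gate genes lie at few places in the genome (GRCm38, the build of mm10, GENCODE annotation). Ccl3 (chr11:83647844-83649355, minus strand) and Ccl4 (chr11:83662584-83664683, plus strand) are neighbours on chromosome 11. Ccl2 (chr11:82035571-82037453) and Ccl12 (chr11:82101845-82103400) lie together elsewhere on it, both on the plus strand. Tnf lies at chr17:35199381-35202007 and Il1a at chr2:129299610-129309972, both on the minus strand. The 250 bases before the RefSeq start of 4 of the gate genes are printed because the cells were chosen on the RNA made from them. They were read 5′ to 3′ on the strand of the gene from RefSeq promoter windows on GRCm38.p6. Capitals mark a TATA box (TATAAA) or an AP-1 motif (TGANTCA). The windows lie at chr11:83649379-83649628 (Ccl3, minus strand), chr11:82101595-82101844 (Ccl12, plus), chr17:35202008-35202257 (Tnf, minus) and chr2:129309973-129310222 (Il1a, minus). Windows for Ccl4 and Ccl2 were not analysed here.
Ccl3: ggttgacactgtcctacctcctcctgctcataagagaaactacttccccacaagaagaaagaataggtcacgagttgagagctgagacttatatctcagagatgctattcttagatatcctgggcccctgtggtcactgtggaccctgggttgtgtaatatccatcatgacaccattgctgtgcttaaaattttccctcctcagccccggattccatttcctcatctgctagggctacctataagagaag
Ccl12: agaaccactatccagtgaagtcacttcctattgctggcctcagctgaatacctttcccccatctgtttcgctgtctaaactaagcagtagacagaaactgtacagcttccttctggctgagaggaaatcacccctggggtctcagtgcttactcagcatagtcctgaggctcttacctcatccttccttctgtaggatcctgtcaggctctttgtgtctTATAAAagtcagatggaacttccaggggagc
Tnf: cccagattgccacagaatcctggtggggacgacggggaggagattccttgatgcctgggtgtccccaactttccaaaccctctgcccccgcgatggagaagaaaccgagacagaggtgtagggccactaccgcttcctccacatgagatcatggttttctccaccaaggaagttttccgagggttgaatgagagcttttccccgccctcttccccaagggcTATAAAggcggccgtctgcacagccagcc
Il1a: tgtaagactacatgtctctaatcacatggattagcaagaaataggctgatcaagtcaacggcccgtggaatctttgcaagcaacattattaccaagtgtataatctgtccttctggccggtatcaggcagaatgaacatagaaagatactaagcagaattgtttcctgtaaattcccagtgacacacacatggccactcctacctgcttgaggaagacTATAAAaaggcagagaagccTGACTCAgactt
The TATA box stood from 31 to 26 bases before the start of Ccl12, from 29 to 24 bases before that of Tnf and from 32 to 27 bases before that of Il1a. The AP-1 motif of Il1a lay from 12 to 6 bases before its start. Over all 32851 windows, 12.4% held a TATA box and 6.75% an AP-1 motif on either strand of these 250 bases. The Ccl3 window held neither motif, and none of the 4 windows held a match to the NF-kappaB motif described next. The GENCODE start of Ccl3 lies 23 bases downstream of the RefSeq start. These are matches of letters and not binding measured in these cells.

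A second set of windows is printed for 3 of the 15 genes with the largest rises, picked because they hold a match to the NF-kappaB motif and stand for different roles, an inhibitor of NF-kappaB (Nfkbia), an early response gene (Ier3) and a macrophage growth factor (Csf1). Capitals mark matches to that motif on either strand. Its pattern was GGGRNNYYCC, with R for A or G, Y for C or T and N for any base. The windows lie at chr12:55492648-55492897 (Nfkbia, minus strand), chr17:35821463-35821712 (Ier3, plus) and chr3:107760470-107760719 (Csf1, minus).
Nfkbia: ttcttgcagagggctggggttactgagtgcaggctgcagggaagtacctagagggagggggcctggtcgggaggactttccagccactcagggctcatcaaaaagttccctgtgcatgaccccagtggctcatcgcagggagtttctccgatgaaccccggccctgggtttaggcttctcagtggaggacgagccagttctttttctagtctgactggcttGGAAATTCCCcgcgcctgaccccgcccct
Ier3: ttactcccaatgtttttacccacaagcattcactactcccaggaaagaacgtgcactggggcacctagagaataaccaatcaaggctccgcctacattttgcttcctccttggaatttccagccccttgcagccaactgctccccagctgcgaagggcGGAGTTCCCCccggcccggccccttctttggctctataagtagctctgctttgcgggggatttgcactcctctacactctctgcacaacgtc
Csf1: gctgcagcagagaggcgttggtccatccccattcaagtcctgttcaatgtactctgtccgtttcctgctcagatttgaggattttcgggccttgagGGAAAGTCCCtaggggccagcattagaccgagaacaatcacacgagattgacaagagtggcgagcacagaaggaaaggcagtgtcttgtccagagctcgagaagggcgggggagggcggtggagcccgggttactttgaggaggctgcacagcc
The match lay from 29 to 20 bases before the start of Nfkbia, from 92 to 83 bases before that of Ier3 and from 154 to 145 bases before that of Csf1. The GENCODE start of Ier3 lies 29 bases upstream of the RefSeq start used here. Of the 15 genes with the largest rises described below, 11 had a window, of which 6 held an NF-kappaB match, 2 an AP-1 motif and 0 a TATA box. A match stood in 7.25% of all windows, counted by window. The other shares were counted by gene, with a match in any window of the gene, and are not on the same scale. A match stood in 10.6% of the 7364 genes tested between the states that had a window. It stood in 13.8% of the 874 such genes that rose and in 12.5% of the 978 that fell.

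Within the chosen cells, Ccl4 was the leading gene. In members, Ccl4 lay at 7038 to 10795 counts per 1000000 UMIs (CPM) over the 11 mice, with a median of 8399. Ccl3 lay at 4046 to 5786 CPM with a median of 5206. Ccl2 (518 to 1622 CPM, median 1167), Ccl12 (374 to 981, median 703), Il1a (327 to 841, median 589) and Tnf (215 to 548, median 337) were lower in every mouse than Ccl3. UMIs were counted from the 3′ ends of transcripts, and these levels were not divided by gene length. Ccl4 gave from 46.1% to 60.9% of the gate UMIs of a mouse and Ccl3 from 27.2% to 32.5%. Ccl4 was the most counted of the 6 genes in 67.9% to 85.0% of the members of a mouse, Ccl3 in 12.3% to 23.6%, and Tnf led in no member. In chemokine-low microglia of the same mice the median levels were 354 CPM for Ccl3, 353 for Ccl4, 235 for Ccl2, 240 for Il1a, 148 for Ccl12 and 119 for Tnf.

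Detection was compared after each cell was thinned to 2000 UMIs, which left out 205 members and 755 chemokine-low microglia with fewer. Ccl3 was then found in 97.2% of members on average over mice (98.0% unthinned), in 35.2% of chemokine-low microglia (45.7% unthinned) and in 3.96% of endothelial cells (8.53% unthinned). Ccl4 was found in 98.5%, 35.6% and 7.15% of these cells. Il1a was found in 52.3%, 30.6% and 0.618%, and Tnf in 37.8%, 19.3% and 0.527%. Endothelial cells were gated on at least 10 UMIs from Cldn5 and Flt1 and none from the 4 microglial genes. Their shares stand for background, since endothelial cells of the same libraries need not express the gate genes. Barcodes with any UMI of the microglial genes were left out of them, so this background may be understated. Median depth per mouse was 4162.5 to 8707 UMIs in members, 3043 to 7017.5 in chemokine-low microglia and 3150 to 7462.5 in endothelial cells. The summed level of the 6 genes was 14870 to 19097 CPM in members, 1168 to 1564 in chemokine-low microglia and 14.1 to 168 in endothelial cells. Only 1 of 28677 endothelial cells reached the 1% threshold. Perivascular macrophages, gated on at least 3 UMIs of Mrc1 and Cd163, had 2788 to 7753 CPM, and 38 of 228 of them reached 1%.

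**Figure D1:**
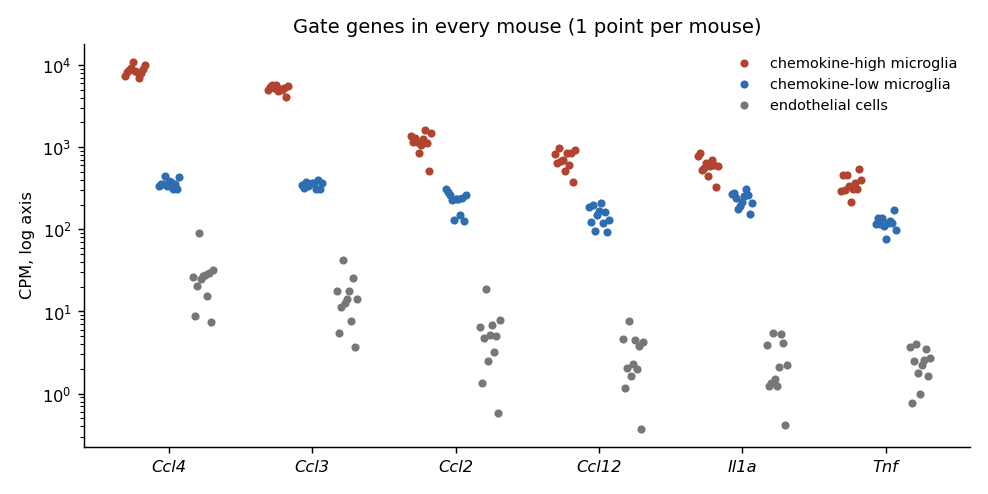
Level of each of the 6 gate genes in CPM (log axis), 1 point per mouse, in chemokine-high microglia, chemokine-low microglia and endothelial cells. Ccl4 and Ccl3 stand highest in the chosen cells, and endothelial cells lie below chemokine-low microglia for every gene.

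Cd83, a surface protein of activated myeloid cells, is a further marker of the state and was no part of the gate. It lay at 372 to 748 CPM in members (median 612) and at 290 to 507 CPM in chemokine-low microglia (median 391). It was higher in members in 11 of 11 mice, though the ranges overlapped between mice (log2 fold change 0.74 ± 0.07 SE, edgeR quasi-likelihood test, adjusted p = 5.87e-09).

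The threshold fell within a continuous range. Most members, 2723, had 1% to 2% of UMIs from the gate genes, 838 had 2% to 4% and 61 had 4% or more, with 8.73% as the highest value. There were 440 members just inside the threshold, at 1.0% to 1.1%, and 499 microglia just outside it, at 0.9% to 1.0%. The median count of gate UMIs in these cells was 43 to 88 per mouse inside and 38 to 77 outside. The members are thus cells above a threshold on a range, and they were not clustered.

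Other features of the libraries bear on what follows. Total UMIs per library ranged from 17550806 to 64215050. Of 65086 distinct barcodes, 966 occurred in more than 1 library, and 47 members had such a barcode. All 11 libraries matched their sex label. Members had a median mitochondrial share of 1.28% to 1.78% per mouse and chemokine-low microglia of 1.49% to 3.13%. Human NOTCH3 gave 14 UMIs in all members together.

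The chemokine-low cells held more RNA of other cell types than the members did. Choroid plexus and ependymal markers (5 genes) summed to 8.58 to 279 CPM in members and to 46.2 to 13920 CPM in chemokine-low cells, and they were lower in members in 10 of 11 mice. Most of this was Ttr, the choroid plexus transport protein transthyretin, which lay at 2.86 to 258 CPM in members and at 40.5 to 12175 CPM in chemokine-low cells. Mural markers (9 genes) summed to 10.2 to 166 CPM in members and 15.3 to 926 in chemokine-low cells, and erythroid markers (5 genes) to 4.10 to 49.3 and 4.99 to 1097. Fibroblast markers (5 genes) lay at 0 to 1.95 CPM in members, with Col1a1 and Pdgfra at 0 in every mouse, and at 1.51 to 221 in chemokine-low cells. Neuronal markers (6 genes) were at 0.64 to 7.07 CPM in members and 0 to 276 in chemokine-low cells, and T and NK cell markers (8 genes) at 0 to 2.15 and 0 to 121. Endothelial markers (11 genes) reached 79.3 to 213 CPM in members and 124 to 246 in chemokine-low cells.

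Markers of the other classes were closer between the states. Perivascular macrophage markers (8 genes) summed to 78.9 to 142 CPM in members, with Lyve1 and Cd209f at 0, and to 92.2 to 191 in chemokine-low cells. Monocyte and neutrophil markers (9 genes) summed to 230 to 348 and 247 to 414 CPM, with S100a8, Retnlg and Ly6g at 0 in members. B cell markers (6 genes) summed to 126 to 212 and 116 to 196 CPM, oligodendrocyte markers (7 genes) to 62.4 to 93.3 and 60.0 to 107, and astrocyte markers (6 genes) to 136 to 213 and 156 to 235. A stricter microglia gate was therefore added after these values were seen. It asked for at least 0.2% of UMIs from the 4 microglial genes, under 0.5% from mural, fibroblast, choroid, T or NK, erythroid and neuronal markers, and at least 1% from core macrophage genes, among them Cst3, Csf1r and Ctss. It removed 92 of 3622 members and 758 of 4482 chemokine-low cells. Of the latter 196 came from the first CADASIL mouse of 9 months and 192 from the second control mouse of 6 months, which were 18.4% and 57.8% of their chemokine-low cells. Each list of genes compared between the states is given below with its value under this stricter gate, and so are some single genes. A single fold change printed alone is that of all gated microglia.

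The share of chemokine-high cells was compared between genotypes to see whether the state was more frequent in CADASIL mice. In CADASIL mice of 6 months it was 31.5% (237 of 752 microglia), 25.0% (129 of 517) and 36.5% (397 of 1088). In CADASIL mice of 9 months it was 20.4% (517 of 2535), 41.2% (341 of 827) and 22.3% (379 of 1701). In control mice of 6 months it was 22.5% (234 of 1038), 15.7% (101 of 642) and 30.4% (612 of 2013), and in control mice of 9 months 11.0% (55 of 500) and 34.5% (620 of 1798). The genotypes overlapped widely, and the lowest and highest mice of each genotype differed beyond counting error. Exact 95% binomial intervals, which cover counting error only, ran from 18.8% to 22.0% for the lowest CADASIL mouse and from 37.9% to 44.7% for the highest. In control mice they ran from 8.39% to 14.1% and from 32.3% to 36.7%.

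The mean share was 29.5% ± 8.32 (SD, n = 6) in CADASIL mice and 22.8% ± 9.79 (SD, n = 5) in control mice. The CADASIL mean was higher by 6.65 points, less than the SD of either genotype (2-sided exact permutation test over 462 splits, p = 0.251). Within batches the CADASIL mean was higher by 8.07 points in batch 1 (2 mice of each genotype, 9 months), 9.10 points in batch 3 (2 of each, 6 months) and 6.09 points in batch 4 (1 of each, 6 months), and batch 2 held 1 CADASIL mouse alone. Permuting genotypes within batches gave a difference of 7.75 points and an exact permutation p = 0.167. The value rested in part on single mice, since without the first control mouse of 9 months the difference was 3.69 points and without the second CADASIL mouse of 9 months 4.29 points. Both of these mice were male. Male mice stood at 31.5% and 41.2% in CADASIL and at 15.7% and 11.0% in control. Female mice stood at 25.0%, 36.5%, 20.4% and 22.3% in CADASIL and at 22.5%, 30.4% and 34.5% in control. The male CADASIL mice stood above the male control mice. Among females the CADASIL mouse stood higher in batch 3 (25.0% against 22.5%) and batch 4 (36.5% against 30.4%). It stood lower in batch 1 (20.4% against 34.5%), and the CADASIL female of batch 2 (22.3%) had no control mouse beside it. Sex was not tested. Under the stricter gate the mean share was 30.9% ± 8.11 (SD, n = 6) in CADASIL mice and 25.4% ± 8.48 (SD, n = 5) in control mice. That difference was 5.51 points (2-sided exact permutation test, p = 0.294). The study left 1 control mouse out of its microglial comparison, and which one is not given in the sources used here.

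The same comparison was made without a threshold. The summed level of the 6 gate genes over all gated microglia was 8248 ± 1549 CPM (SD, n = 6) in CADASIL mice and 7038 ± 1969 CPM (SD, n = 5) in control mice. The difference of 1210 CPM was again within the spread between mice (2-sided exact permutation test, p = 0.288). It was 2011, 1180 and 1242 CPM within batches 1, 3 and 4, and 542 CPM without the first control mouse of 9 months and 686 CPM without the second CADASIL mouse of 9 months. Males stood at 8161 and 10870 CPM in CADASIL and at 5985 and 4365 CPM in control mice. Females ran from 6677 to 9145 CPM in CADASIL and from 7371 to 9566 CPM in control mice. Of all kept barcodes, members made up 5.89% ± 1.45 (SD, n = 6) in CADASIL and 5.43% ± 3.90 (SD, n = 5) in control mice, a difference of 0.459 points (exact permutation p = 0.799).

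**Figure D2:**
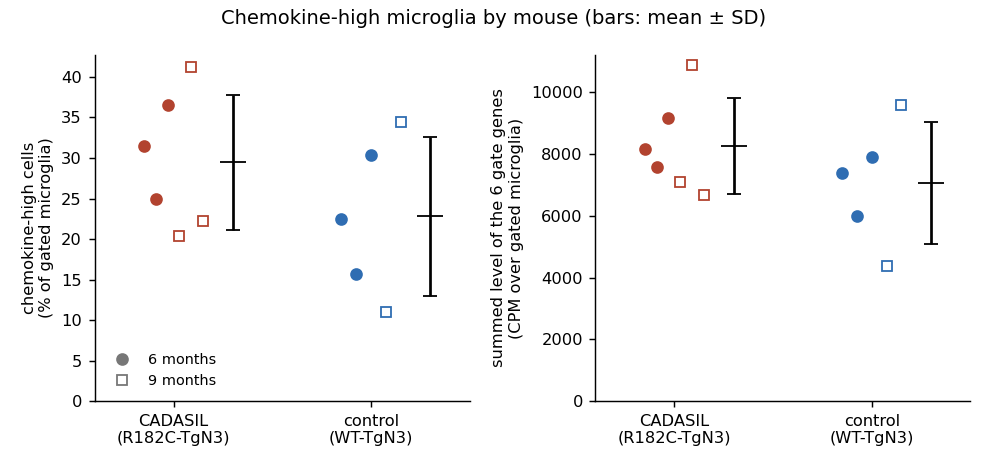
Left, share of chemokine-high cells among gated microglia (%). Right, summed level of the 6 gate genes over all gated microglia (CPM). Each point is 1 mouse, filled at 6 months and open at 9 months, and bars give the mean ± SD per genotype. The genotypes overlap in both panels, at 29.5% against 22.8% and 8248 against 7038 CPM.

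Chemokine-high and chemokine-low microglia of the same mouse were then compared to see what else differed with the 6 genes. UMIs were summed per mouse and state, the 14 genes of the gate were left out, and mouse was kept as a block in an edgeR quasi-likelihood test. Of 9077 genes tested, 25.6% passed at an adjusted p under 0.05. Of these genes 1103 (12.2% of those tested) were higher in chemokine-high microglia and 1222 (13.5%) were lower. Under the stricter gate 21.0% of 8718 genes passed, 885 higher (10.2%) and 946 lower (10.9%). Of the 1094 rises tested there 66.5% were called again in the same direction, and of the 1140 falls 68.8%. The cells were sorted by their own counts, so these p-values say how regularly a difference recurred over mice.

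The genes with the largest rises were chosen by a rule, namely the largest log2 fold changes among genes that passed, rose in every mouse and reached 50 CPM in members. The rule was met by 180 genes. The first was Csf1, the growth factor on which microglia depend. Csf1 lay at 117 to 228 CPM in members (median 188) and at 38.6 to 147 CPM in chemokine-low cells (median 70.4). It rose in 11 of 11 mice by 1.41 ± 0.10 (log2 fold change ± SE, adjusted p = 1.09e-10), and by 1.39 under the stricter gate.

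Ier3, an immediate-early gene that NF-kappaB can induce, lay at 429 to 699 CPM in members (median 526) and at 152 to 290 in chemokine-low cells (median 213). No member value overlapped a chemokine-low value, and the log2 fold change was 1.29 ± 0.08 (adjusted p = 1.03e-11). Ccrl2, an atypical chemokine receptor that binds chemerin, lay at 158 to 243 CPM (median 168) and at 41.2 to 101 CPM (median 79.3), again without overlap, with a log2 fold change of 1.27 ± 0.08 (adjusted p = 2.25e-11). Rcan1, an inhibitor of calcineurin, rose from 59.3 ± 25.7 to 144 ± 58.4 CPM (mean ± SD, n = 11; log2 fold change 1.31). Osm, which encodes the cytokine oncostatin M, rose from 26.6 ± 8.13 to 60.2 ± 10.7 CPM (1.17). Cxcl16, a membrane-bound chemokine, rose from 30.1 ± 5.47 to 63.7 ± 9.78 CPM (1.08).

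Smim3 followed with a log2 fold change of 0.98 and Egr3, an immediate-early transcription factor, with 0.94. Tlr2, the receptor for bacterial lipoproteins, lay at 84.1 to 136 CPM in members and at 41.5 to 64.8 CPM in chemokine-low cells, without overlap, and rose by 0.92 ± 0.07 on the log2 scale. Nfkbia, which encodes IkappaB-alpha, rose from 688 ± 203 to 1213 ± 163 CPM (0.88). The rest were Ildr1 (0.88), Gatm, an enzyme of creatine synthesis (0.88), Bcl2a1b, a survival gene of the Bcl2 family (0.86), Ptchd1 (0.83) and Slamf9 (0.78). Bcl2a1b has near-identical copies in the genome, so its count is uncertain. These 15 genes all rose under the stricter gate as well, by between 0.56 (Slamf9) and 1.39 (Csf1) on the log2 scale.

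The 10 largest falls were chosen by the same rule turned round, which 287 genes met. The first, Enpp2, encodes the secreted enzyme autotaxin and is also a choroid plexus marker. It lay at 1.60 to 19.3 CPM in members and at 5.20 to 1684 CPM in chemokine-low cells (log2 fold change -5.52). Under the stricter gate the value was -0.24 (adjusted p = 0.353), and without the deepest 5% of cells it was -0.38 (adjusted p = 0.148). Ttr likewise gave -3.77 at first and -0.09 (adjusted p = 0.363) under the stricter gate, and Acta2, a smooth muscle actin, gave -2.69 and then 0.31 (adjusted p = 0.231). These 3 genes are markers of other cell types. The stricter gate removes cells by marker sums that include them, so their values under it are set in part by that gate.

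The other falls were smaller and were called under both gates. Glis3, a transcription factor, fell by 0.74 (0.56 under the stricter gate), Mtmr10 by 0.65 (0.70), Chst8 by 0.62 (0.57), Fry by 0.62 (0.49) and Nos1ap, an adaptor of neuronal nitric oxide synthase, by 0.61 (0.54) on the log2 scale. Hsph1, a heat shock protein, fell by 0.73 (0.42), Dlc1, a regulator of small GTPases, by 0.71 (0.39), Utrn, the dystrophin homologue utrophin, by 0.66 (0.21) and Mast4, a kinase, by 0.64 (0.28). Genes that fell were long. The median genomic span was 27.2 kb over all genes tested, 11.6 kb over the rises and 100 kb over the falls, and 50.0% of the falls but 4.64% of the rises spanned over 100 kb. With the stricter gate the medians were 12.1 kb for rises and 92.0 kb for falls. Spans were read from the annotation, and the part of gene length or of unspliced RNA in these differences was not tested.

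**Figure D3:**
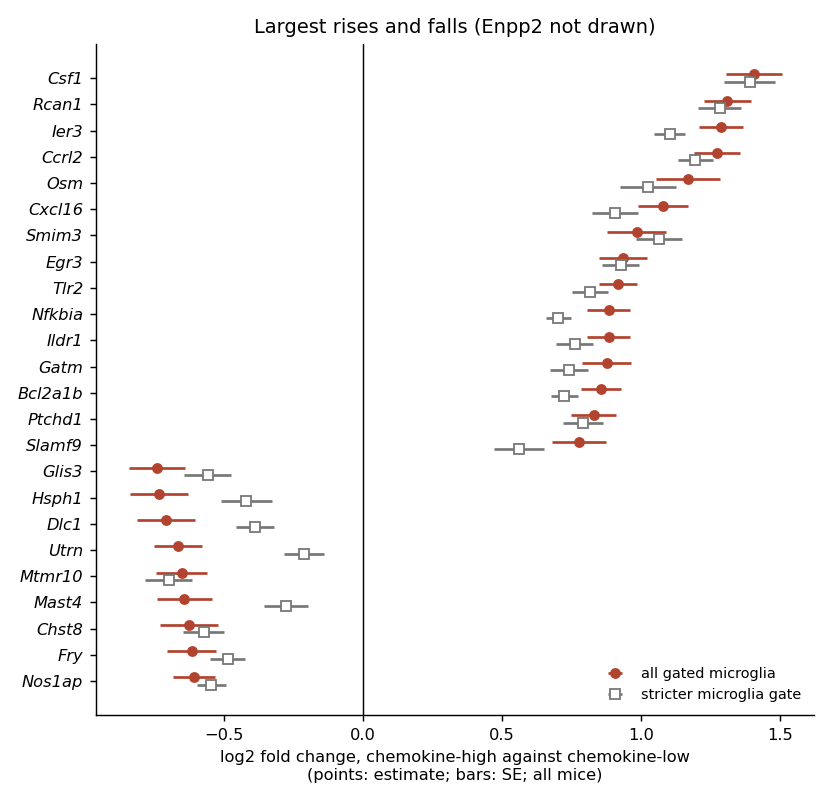
Log2 fold change ± SE between chemokine-high and chemokine-low microglia (11 mice) for the 15 largest rises and the falls, with all gated microglia as filled circles and the stricter microglia gate as open squares. Enpp2, at -5.52, is not drawn. Csf1 leads at 1.41, and the falls from Glis3 to Nos1ap lie between -0.74 and -0.61.

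Few genes separated the states in every pair of mice. For 19 genes (0.209% of those tested) no value of a chemokine-high sample overlapped one of a chemokine-low sample, 18 of them higher (0.198%) and 1 lower (0.011%). The 18 were Art3, Bcl2a1a, C3ar1, C5ar1, Ccrl2, Cd48, Cd9, Clec7a, Ctsb, Ctsh, Cxcl16, Edn1, Gatm, Ier3, Osm, Pea15a, Slamf9 and Tlr2. Those of the 19 that are neither on a list nor among the largest changes were named after their values were seen. C5ar1, the receptor for the complement fragment C5a, lay at 312 to 439 CPM in members and at 156 to 305 CPM in chemokine-low cells (log2 fold change 0.77, and 0.71 under the stricter gate), and C3ar1, the receptor for C3a, at 480 to 608 CPM and 303 to 396 CPM (0.66, and 0.57). Edn1, which encodes the vasoconstrictor peptide endothelin 1, lay at 23.1 to 60.8 CPM in members and at 6.23 to 20.9 CPM in chemokine-low cells (1.66, and 1.58). Art3 lay at 28.0 to 88.7 and 4.97 to 24.2 CPM (1.69, and 1.64). The single lower gene, Nhsl2, lay at 10.9 to 26.2 CPM in members and at 29.2 to 87.4 CPM in chemokine-low cells (-1.13, and -0.54). With cells thinned to 2000 UMIs its value was -0.39 and did not pass (adjusted p = 0.117).

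Lists of genes were compared by role, each set beside the 12.2% of all genes that rose and a median log2 fold change over all genes of 0.00. A gene with enough counts in the sums of 1 state alone could enter the test. Counts for lists of low genes can therefore lean towards genes that differ. Some genes stand on 2 lists, among them Csf1, Ccl6, Cd83, Trem2 and Cxcl10. The first list held other cytokines and chemokines. Of its 25 genes 14 were tested, of which 9 rose and none fell, with a median of 0.90, and under the stricter gate 9 of 12 rose. Ccl7, a monocyte chemokine gene next to Ccl2 (chr11:82045712-82047525), lay at 8.60 to 123 CPM in members (median 61.0) and at 3.55 to 25.8 CPM in chemokine-low cells (median 11.8). Its log2 fold change was 2.45 ± 0.15 (adjusted p = 1.03e-11), and it was higher in 10 of 11 mice. Cxcl10, an interferon-induced chemokine, lay at 12.9 to 215 CPM (median 111) and at 5.56 to 54.9 CPM (median 19.3), with a log2 fold change of 2.14, higher in 10 of 11 mice. The exception for both was the first control mouse of 9 months, which had the fewest members (55), with Ccl7 at 8.60 in members against 13.6 CPM and Cxcl10 at 12.9 against 19.3 CPM.

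Il1b, the gene of interleukin 1 beta, was higher in 11 of 11 mice, at 35.6 ± 13.5 against 8.09 ± 4.46 CPM (mean ± SD, n = 11; log2 fold change 1.98). Ccl9 (0.79) and Ccl6 (0.69), which lie beside Ccl3 on chromosome 11, and Ptgs2, the inducible cyclooxygenase (0.74), rose as well. Among receptors for such signals 6 of 16 rose and 1 fell (median 0.08), but under the stricter gate 1 of 15 rose and 4 fell (median 0.02). Ccrl2 was the rise under both. Without the deepest 5% of cells 2 of 15 rose and 3 fell. Ifnar2, a chain of the type I interferon receptor, rose from 179 ± 24.7 to 208 ± 19.4 CPM (0.24), with an adjusted p = 0.0581 under the stricter gate. Tnfrsf1b, the second TNF receptor, fell from 88.6 ± 9.23 to 72.8 ± 8.43 CPM (-0.23 under both gates). It did not pass with cells thinned to 2000 UMIs (-0.13, adjusted p = 0.320), at a threshold of 2% (adjusted p = 0.0920) or with no filter on low counts (adjusted p = 0.0655).

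NF-kappaB inhibitors and known targets showed 15 rises of 26 and no falls (median 0.23), and 16 of 25 under the stricter gate. With cells thinned to 2000 UMIs 8 of 23 rose (median 0.11), against 11.6% of all 6003 genes tested there. Besides Nfkbia and Ier3, they included the inhibitors Nfkbid (log2 fold change 0.67) and Nfkbiz, at 662 to 1071 CPM in members and 393 to 772 CPM in chemokine-low cells (0.52). They also included Tnfaip3, the ubiquitin-editing enzyme A20 that limits NF-kappaB signalling, at 346 ± 60.2 against 260 ± 52.7 CPM (0.45). Of the 22 genes of the list with a window, 11 held an NF-kappaB match. Pattern recognition receptors and adaptors showed 10 rises of 20 (median 0.29), 7 of 20 with 1 fall under the stricter gate, and 5 of 15 with 1 fall in thinned cells. Cd14, the lipopolysaccharide co-receptor, lay at 208 to 388 CPM in members and 151 to 209 CPM in chemokine-low cells (0.78, and 0.60 under the stricter gate). Pycard, the inflammasome adaptor, rose by 0.37 (0.17) and Irak2, a kinase of Toll-like receptor signalling, by 0.29 (0.29).

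Immediate-early genes, which respond within minutes to many stimuli including tissue digestion, showed 22 rises of 33 and 2 falls (median 0.25), and 23 rises and 4 falls under the stricter gate. Myc (1.10), Id2 (1.07), Egr2 (0.51) and Atf3, at 2924 ± 716 against 2231 ± 487 CPM (0.42), were among the rises. The AP-1 genes did not move together. Jun (0.18) and Fos (0.21) rose slightly, and under the stricter gate their values were 0.07 (adjusted p = 0.0675) and 0.08 (adjusted p = 0.133). At a threshold of 2% both missed the test, and so did both without the second CADASIL mouse of 6 months, at 0.15 (adjusted p = 0.0585) and 0.18 (adjusted p = 0.0790). Fos also missed it without the first CADASIL mouse of 9 months (0.17, adjusted p = 0.0896). Fosb lay at 484 to 1377 CPM in members (median 820) and at 829 to 2039 CPM in chemokine-low cells (median 1137), lower in members in 11 of 11 mice, with a log2 fold change of -0.52 under both gates. Klf4, a transcription factor, was also lower in 11 of 11 mice (-0.29). Heat shock genes showed 2 rises and 2 falls of 13, such as Hspa8 (0.28) and Dnaja1 (-0.21), and 4 and 3 under the stricter gate. In thinned cells 3 rose and 1 fell, and Dnaja1 did not pass (-0.16, adjusted p = 0.0923). The part of digestion in these values was not tested.

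Homeostatic microglial genes, which mark microglia of the undisturbed brain, showed 6 rises and 3 falls of 29 (median 0.05). The falls included Itgam, an integrin of myeloid cells, at 394 ± 25.8 against 464 ± 43.0 CPM (-0.20, and -0.16 with adjusted p = 0.0560 with no filter on low counts), and the ATP-degrading enzyme Entpd1 (-0.20). Under the stricter gate 2 rose and 13 fell (median -0.10), and in thinned cells 7 rose and 6 fell. Cst3, the protease inhibitor cystatin C, gave 0.33 at first and 0.06 (adjusted p = 0.167) under the stricter gate, but Cst3 is used by that gate. Trem2, a lipid-sensing receptor, gave 0.34 and 0.10.

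Genes of disease-associated microglia, a state described around plaques and lesions, showed 18 rises of 21 and no falls (median 0.49), and 18 of 18 under the stricter gate (median 0.35). Clec7a, the beta-glucan receptor dectin-1, lay at 22.4 to 116 CPM in members (median 32.8) and at 4.83 to 13.1 CPM in chemokine-low cells (median 9.97), without overlap, with a log2 fold change of 1.88 ± 0.15 (adjusted p = 1.19e-09). Lpl, lipoprotein lipase, rose by 1.56. Cd9, a tetraspanin, lay at 1389 to 1800 CPM and 948 to 1267 CPM, without overlap (0.52, and 0.39 under the stricter gate), and the lysosomal genes Cd63 (0.59), Cd68 (0.49) and Ctsb (0.48) and the adaptor Tyrobp (0.45) rose less. Under the stricter gate Cd63 rose by 0.53, Cd68 by 0.25 and Ctsb by 0.32. Apoe, the lipid carrier, varied most. It lay at 138 to 2562 CPM in members (median 631) and at 177 to 530 CPM in chemokine-low cells (median 416), higher in 9 of 11 mice (0.89, adjusted p = 0.00506), with the highest value in the first control mouse of 9 months.

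Of 24 interferon-response genes 16 were tested, with 11 rises and no falls (median 0.69), and 12 of 15 rose under the stricter gate. In thinned cells, where 8 of them were tested, 4 rose (median 0.34). Ifi207 rose from 10.1 ± 8.41 to 41.8 ± 26.3 CPM (2.16) and Isg15, a ubiquitin-like modifier, from 17.6 ± 5.78 to 34.2 ± 14.6 CPM (1.06), with smaller counts for Ifit3 (4.16 ± 3.05 to 13.1 ± 7.78 CPM, 1.81) and a smaller change for Bst2 (0.39). Antigen presentation genes showed 8 rises of 16 (median 0.30), such as H2-D1, a class I heavy chain (0.30), and the costimulator Cd86 (0.29), and 7 of 16 under the stricter gate. Glycolysis genes showed 4 rises and 1 fall of 16 (median 0.07), with Pfkfb3 (0.40) and Gapdh (0.33) among the rises, and 6 rises and no falls under the stricter gate. Cell cycle genes were mostly too low to test, and 3 of 6 rose, among them Pcna (0.26), against 1 of 5 under the stricter gate. In thinned cells Pcna did not pass (0.17, adjusted p = 0.155).

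Nuclear genes of oxidative phosphorylation depended on which cells were compared. Of 44 such genes 1 rose and none fell (median 0.05). Under the stricter gate 20 of 44 rose (median 0.18), with cells thinned to 2000 UMIs 19 of 44 (median 0.28), and without the deepest 5% of cells 28 of 44 (median 0.24).

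**Figure D4:**
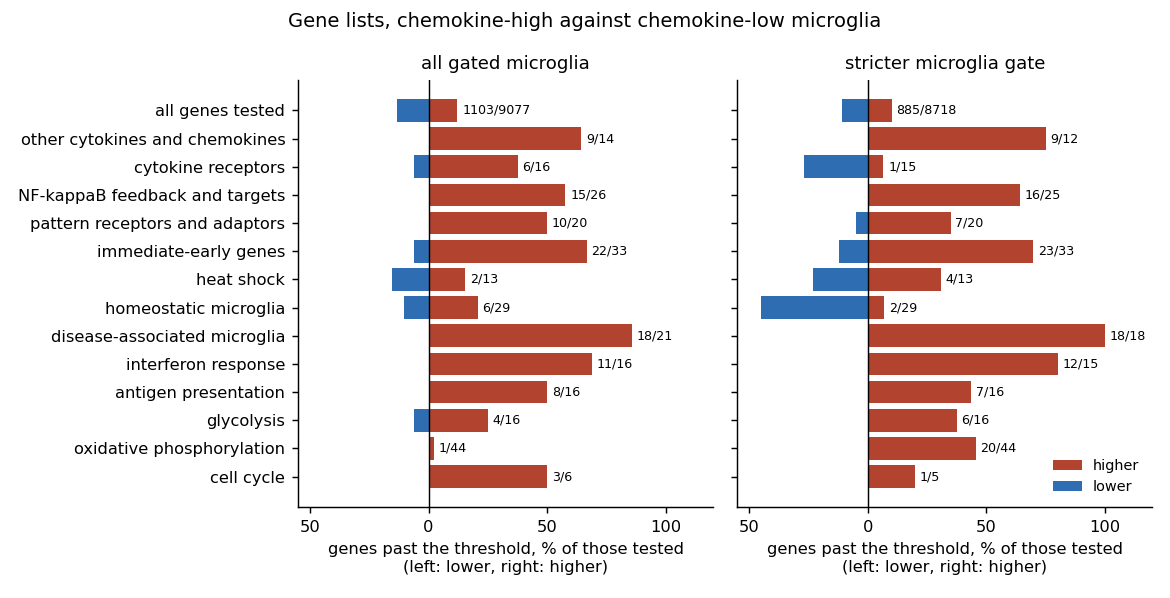
Percentage of tested genes of each list that were higher (right) or lower (left) in chemokine-high microglia, for all gated microglia and for the stricter gate, with rises over genes tested beside each bar. Disease-associated genes stand at 18 of 21 and 18 of 18, against 1103 of 9077 and 885 of 8718 over all genes tested.

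Levels were also followed above the threshold. Microglia were divided by their share of gate UMIs into under 0.3%, 0.3% to 1%, 1% to 2% and 2% to 4%, and 10 mice had at least 10 cells in the last bin. Mean Ier3 over mice was 223, 371, 484 and 701 CPM along these bins, and it was higher in the last than in the third in 10 of 10 mice. Csf1 went from 70.8 through 115 and 146 to 272 CPM and Tlr2 from 55.5 through 76.6 and 95.8 to 129 CPM, both also in 10 of 10 mice. Cd83 (380, 504, 570 and 793 CPM) and Cd9 (1110, 1300, 1491 and 1766 CPM) rose in 10 of 10 mice, Cxcl10 (26.9, 51.3, 89.4 and 188 CPM) in 9 and Clec7a (9.95, 16.4, 29.5 and 56.4 CPM) in 8. Fosb went the other way, from 1216 through 1069 and 887 to 697 CPM, and was higher in the last bin in 1 of 10 mice, as was Itgam (464, 438, 404 and 361 CPM). Other genes that rose between the states did not go on rising. Jun was at 6569 CPM in the third bin and 6644 in the last, higher in 5 of 10 mice, and Ifnar2 went from 211 to 194 CPM and Pcna from 186 to 171 CPM, higher in 1 and 3 mice. Of the 59 genes described here that rose between the states, apart from the gate genes, 34 were higher in the last bin than in the third in 8 or more of 10 mice, 18 in 6 or 7 and 7 in 5 or fewer. Of the 19 that fell, 18 were higher in 5 or fewer mice and 1 in 6 or 7. These genes were picked from the lists after their values were seen, and the bins were not tested.

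**Figure D5:**
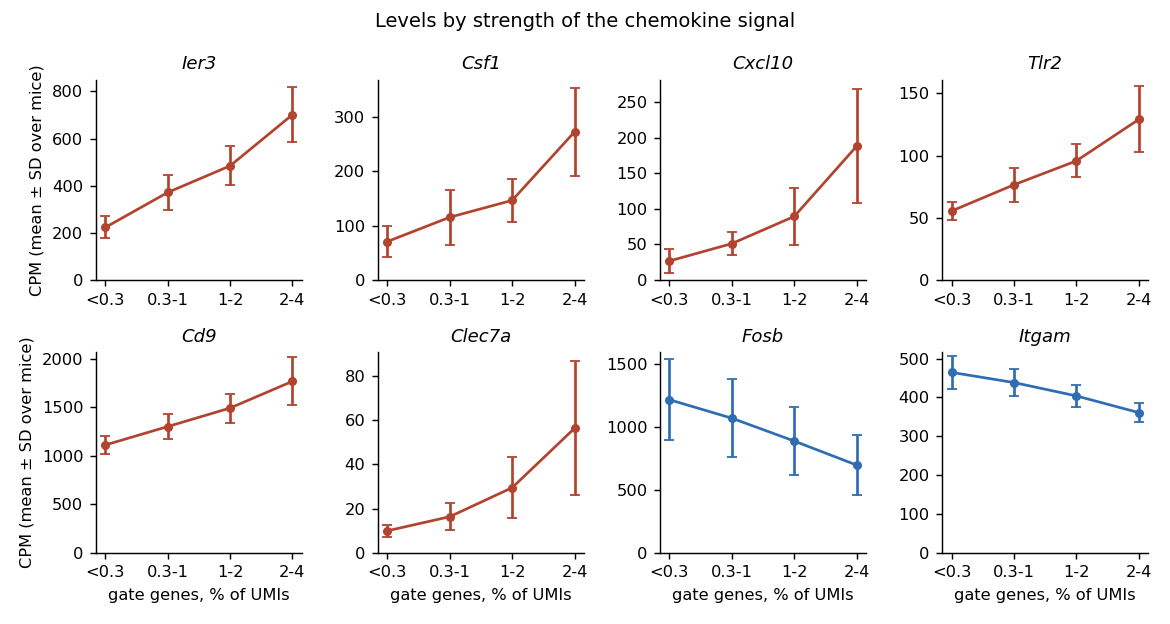
Level (CPM, mean ± SD over mice, axes from 0) of 8 genes in microglia by the share of UMIs from the 6 gate genes, with 11 mice in the first 3 bins and 10 in the last. Ier3 goes from 223 to 701 CPM and Csf1 from 70.8 to 272, and Fosb goes from 1216 to 697.

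Genotype was compared within chemokine-high microglia over all genes. Of 9308 genes tested none passed (0.0% called, edgeR quasi-likelihood test), with 124 at an unadjusted p under 0.05, and with DESeq2 also none, with 64. Ccl4 stood at 8822 ± 1138 CPM in CADASIL and 8466 ± 1087 CPM in control members (mean ± SD, n = 6 and 5), Ccl3 at 5334 ± 385 and 4986 ± 583, and Tnf at 344 ± 98.4 and 386 ± 99.2. Csf1 was at 173 ± 39.7 and 176 ± 42.6 CPM and Ier3 at 539 ± 88.0 and 534 ± 91.3, differences far below the spread between mice. Cxcl10 was at 140 ± 52.8 CPM in CADASIL and 88.0 ± 50.1 in control members (log2 fold change 0.55 ± 0.29 SE). No gene of any list passed. By any amount, 4837 of all 9308 genes were higher in CADASIL (median log2 difference 0.01). Disease-associated genes stood at 21 of 24 (0.09) and nuclear oxidative phosphorylation genes at 36 of 44 (0.12). Other cytokines and chemokines stood at 10 of 14 (0.15). Heat shock genes stood at 10 of 13 (0.13), NF-kappaB genes at 19 of 26 (0.05) and homeostatic genes at 18 of 29 (0.03). Interferon-response genes stood at 8 of 20 (-0.03), immediate-early genes at 16 of 33 (0.00) and cytokine receptors at 9 of 18 (0.01). Genes of a list were measured in the same mice and are not independent, so these counts do not show a shift by genotype. The counts were not tested, and no values under the stricter gate are given for them.

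Whether the step from chemokine-low to chemokine-high differed between genotypes was tested directly. None of 9077 genes passed the state by genotype term (0.0% called), with 175 at an unadjusted p under 0.05, and with DESeq2 none, with 51. For Cxcl10 the step was larger in CADASIL by 0.34 ± 0.39 and for Csf1 smaller by 0.16 ± 0.21 (log2 scale, SE), neither beyond its error.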

How the data were processed

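Single-cell RNA sequencing libraries of CD31-isolated brain vascular cells were made from 11 mice with a droplet 3′ kit. Per the labels and the study's methods, Cell Ranger 7.0.0 and an mm10 transcriptome that also held human NOTCH3 were used, and the authors deposited raw UMI counts per gene for each called barcode. Whole numbers were checked in every matrix. No doublet caller was run here, and the limits on endothelial and perivascular macrophage genes took its place in part. Members, gene lists and tests were chosen with earlier results of these data known.

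UMIs were summed per mouse and state for mice with at least 20 cells in each, which held for all 11, without the classes of genes the study removed (ribosomal and mitochondrial genes, and those named Gm or ending in Rik). The quasi-likelihood test of edgeR 4.0.16 (R 4.3.3) was fitted after filterByExpr and TMM scaling, and p-values were adjusted over every gene in the fit by Benjamini-Hochberg. The fits were tested on simulated counts. DESeq2 1.42.0 was an alternative. Mice are the replicates, and p-values set a difference against the variation between these mice, which for the states is variation of the difference within each mouse. Shares and single values were compared with 2-sided exact permutation tests in Python 3.11.15 with scipy 1.17.1. CPM means counts per 1000000 UMIs, summed per mouse before scaling.

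Named genes were the gate genes, genes of the lists, and the 15 largest rises and 10 largest falls with an adjusted p under 0.05, the same direction in every mouse and at least 50 CPM in the higher state. Alternatives were other thresholds, filters, depth thinning, normalizations, covariates, batches, each mouse left out, and, added after the data were seen, shared barcodes or the deepest 5% of cells left out and the stricter microglia gate. Thinned detection in endothelial cells used up to 500 cells per mouse. Promoter motifs were searched on both strands of 250 bases in RefSeq windows of GRCm38.p6, and gene spans came from the GENCODE annotation. Some genes of the lists and of the stricter gate are counted but not reported here by name. Human NOTCH3 and the 11 libraries' sex labels were checked only as given in the report.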

Additional observations from a re-analysis of the deposited data

Results flagged for a closer look

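In 7 of 174 tests of a gene's level over members within a genotype, 1 mouse stood apart from the others of its genotype, with a gap to the nearest mouse that was large against the whole range. Chance alone gives such a gap in about 1 in 20 groups, or more often than was seen here.

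Clec7a in the second CADASIL mouse of 6 months was at 116 CPM over members, and the other CADASIL mice were at 22.4 to 46.1 CPM. The same mouse had Art3 at 88.7 CPM against 30.2 to 51.4 CPM. Dnaja1 in the first CADASIL mouse of 9 months was at 670.0 CPM against 213 to 283 CPM. Among control mice, Osm was at 40.9 CPM in the first mouse of 6 months against 55.9 to 61.3 CPM, and Cd63 in that mouse was at 253 CPM against 350.0 to 385 CPM. Egr2 was at 184 CPM in the second control mouse of 6 months against 118 to 133 CPM. Isg15 was at 58.3 CPM in the second control mouse of 9 months against 21.5 to 26.6 CPM. These are values of single mice and no test was made of what sets them apart.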

How the results depend on the processing

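The difference in share between genotypes kept its direction in all 23 alternatives, and in none was the permutation p under 0.05. It ran from 0.459 points of all kept barcodes to 9.56 points, and without single mice from 3.69 to 9.56 points. None of these alternatives took sex into account. Among females the CADASIL share was higher in batches 3 and 4 and lower in batch 1. The difference in the summed gate level ran from 542 to 1843 CPM without single mice. Pairing mice by age and replicate number (replicate block, 5 pairs) gave 8.08 points and 1525 CPM, each with an exact sign-flip permutation p = 0.0625, the smallest that 5 pairs can give, and no called gene between genotypes. The numbers did not pair the mice (correlations from -0.024 to 0.256), and 1 control mouse correlated best with its own number.

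The 2325 genes called between the states became 3526 with no filter on low counts, 1375 with cells thinned to 2000 UMIs (6003 genes tested), and 1708 to 2366 without single mice. The genes called between genotypes within members went from 0 to 5 and the state by genotype term from 0 to 16 with no filter on low counts, and both stayed at 0 without each mouse. The log2 fold change of Acta2 turned to 0.31 under the stricter gate, which removes cells by markers that include Acta2. The cause of the other changes was not tested. Of 78 genes named with a fold change, 66 kept their direction and call in every setting. A detected share is limited by depth, which was under 2000 UMIs in 205 members and 755 chemokine-low cells.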

Other observations

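Of the 5 genes called between genotypes within members with no filter on low counts, Gh and Prl encode pituitary hormones, Mia and Olr1 had low mean levels in members and Negr1 is a neuronal adhesion gene. They were named by the rule for genes past the threshold, and Gh, Prl, Mia and Olr1 were too low to be tested with the filter, where Negr1 was tested and did not pass. The 16 genes whose step between the states differed between genotypes without the filter were Atp1b1, Ccl5, Dcn, Gpc6, Grm7, Igfbp5, Mgp, Mia, Nrap, Ptprk, Rbms3, Ror1, Stk39, Tmco4, Ttr and Vtn. Of these, Ttr is on the choroid plexus list, Dcn on the fibroblast list and Vtn on the mural list, whose levels in chemokine-low cells varied between mice as given above.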
